A study of Mus musculus with 6 samples.

Results

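The voltage-gated sodium channel genes Scn1a, Scn2a1, Scn3a, Scn8a, Scn2b, Scn3b and Scn4b were followed in the whole brains of male mice with and without an activated human SRY transgene. Members were taken by gene symbol. Of the 7 genes, 5 were measured, by 8 probes, among 25697 probes under 18138 symbols, and Scn2a1 and Scn3a were not analysed here. The comparison of the embryonic Scn3a with the later members was therefore not made. All brains came from males at postnatal day 6, labelled FVB (the study's methods give FVB/N), with 3 arrays of separate animals for hSRY-OFF and 3 for hSRY-ON. Both groups carry one cassette, Signalox-hSRY, inserted as a single copy at H11. In hSRY-OFF the cassette is not recombined, and its CAG promoter, which is active in nearly all cells, drives the red reporter DsRed2. In hSRY-ON, Cre left in the oocyte by a Ddx4-Cre mother removed DsRed2 in the early embryo and put FLAG-tagged human SRY and EGFP behind the same promoter, and pups that carried the Ddx4-Cre transgene themselves were not used. The groups thus differ in the reporter as well as in SRY, and the transgene itself was not measured here. The study does not give the mothers of the hSRY-OFF pups, so mother and litter may differ between the groups too. It also reports that hSRY-ON pups grew more slowly, lacked milk in the stomach and had smaller brains. These differences cannot be told apart here.

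Voltage-gated sodium channels open when a neuron is depolarized and carry the rising phase of the action potential. Each channel has a large alpha subunit, which forms the pore, and smaller beta subunits, which tune its gating and anchor it in the membrane. Scn1a (Nav1.1), Scn2a (Nav1.2, Scn2a1 in the older naming), Scn3a (Nav1.3) and Scn8a (Nav1.6) encode the alpha subunits of the central nervous system, of which Scn3a is the main embryonic form and the others gain weight after birth. Scn2b and Scn4b encode beta subunits that are bound to the alpha subunit by a disulfide bond, while the Scn3b product is bound without one. Channels are gathered at the axon initial segment and the nodes of Ranvier by ankyrin G and its partners.

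The median signal intensity per array ranged from 200.2 to 219.8, and 13816 to 14377 probes per array were detected above the negative controls at a detection p-value under 0.05. All 8 sodium channel probes were among the 14215 probes detected on at least 3 of the 6 arrays, which were tested. A call means an adjusted p under 0.05 in limma, and 308 of the tested probes (2.17%) were called. Fold changes are given on the log2 scale as hSRY-ON minus hSRY-OFF, after background correction and quantile normalization, and single array values are the deposited signals unless stated. Whole brain is a mixture of cells, so fewer cells of a type cannot be told apart from less RNA per cell.

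Expression of both disulfide-linked beta subunit genes was lower in hSRY-ON brains. Scn2b fell by 0.59 on the log2 scale, to 0.662 of its hSRY-OFF level, and Scn4b fell by 0.75, to 0.595. They were 2 of the 8 probes, and 1.32% of all tested probes were called in that direction. Both calls were lost with no filter on dim probes and with the replicate number as a block. The probes of Scn1a, Scn8a and Scn3b did not pass the test, and 0 of the 8 were called upward in limma, against 0.844% of all tested probes. An unadjusted p under 0.05 was reached by 3 of the 8 probes (Scn1a, Scn2b and Scn4b), against 20.9% of all. For 5 of the 8 probes the normalized values of the groups did not overlap, which held for 27.7% of all tested probes. In 3 of these hSRY-ON was higher (13.5% of all) and in 2 it was lower (14.2% of all). The median fold change of the 8 probes was 0.08 on the log2 scale, against 0.0048 over all tested probes.

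The Scn2b probe (ILMN_2935462) gave signals of 852, 849 and 832 on the hSRY-OFF arrays and 591, 614 and 552 on the hSRY-ON arrays. Every hSRY-ON signal lay below every hSRY-OFF signal, and the lowest hSRY-ON signal was still well above the lowest signals that counted as detected, which lay between 183.9 and 202.5 on the 6 arrays. The normalized log2 signal averaged 9.40 ± 0.13 in the controls and 8.80 ± 0.11 with SRY activated (SD, n = 3 per group), a difference of -0.59 (SE 0.10, 95% interval -0.83 to -0.36, limma adjusted p 0.0386).

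The Scn4b probe (ILMN_2813547) gave signals of 357, 324 and 326 in hSRY-OFF and 246, 249 and 269 in hSRY-ON. The groups again did not overlap. Its normalized log2 signal averaged 7.49 ± 0.04 in the controls and 6.74 ± 0.21 with SRY activated (SD, n = 3 per group), a difference of -0.75 (SE 0.12, 95% interval -1.02 to -0.47, limma adjusted p 0.0348). Without background correction the difference was -0.36 (limma adjusted p 0.00469), and with normexp at an offset of 50 it was -0.52. The ratio of the mean deposited signals was 0.758, hSRY-ON over hSRY-OFF. Leaving out any 1 array ended the call of Scn2b (limma adjusted p 0.0637 to 0.130). The call of Scn4b remained without hSRY-ON array 3 (0.0279) and was lost without each of the other arrays, at up to 0.117, and both differences stayed negative in all of these fits, with -0.67 to -0.55 for Scn2b and -0.85 to -0.63 for Scn4b.

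**Figure D1:**
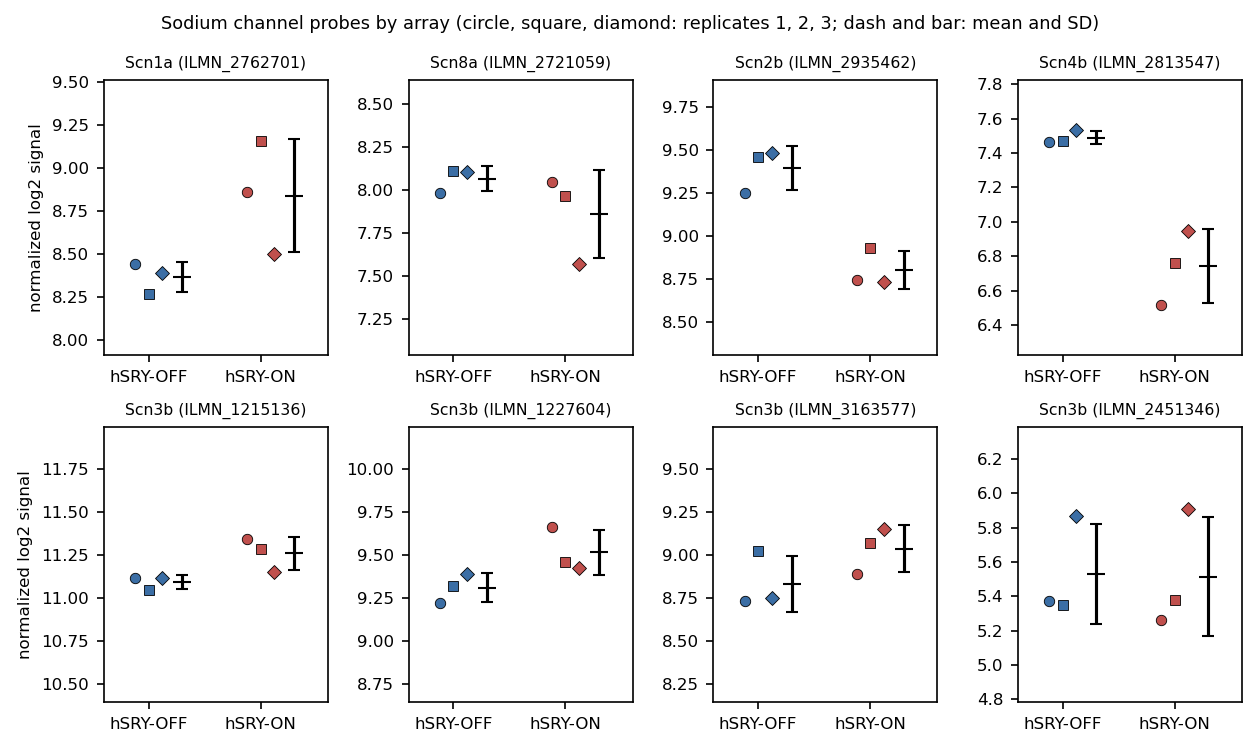
Normalized log2 signal of each sodium channel probe on the 3 hSRY-OFF (blue) and 3 hSRY-ON (red) arrays, with circles, squares and diamonds for replicates 1, 2 and 3 and a dash with bars for the mean and SD of each group; all panels span the same range of log2 signal. The groups are separate for Scn2b, Scn4b, Scn1a and the Scn3b probes ILMN_1215136 and ILMN_1227604, and they overlap for Scn8a and the other Scn3b probes.

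Scn2b and Scn4b are neighbours. In the RefSeq annotation of GRCm38.p6 no other protein-coding gene lies between them. Among the 4 protein-coding genes on either side of the pair, 7 of 8 had probes and 2 could be tested. These were the T-cell receptor component Cd3e, with a difference of 0.09 (limma adjusted p 0.702), and the interleukin 10 receptor gene Il10ra, with -0.15 (limma adjusted p 0.70). Neither of these 2 neighbours was called, and 0 of them had an unadjusted p under 0.05, while the others with probes were not detected on enough arrays. These neighbours were looked up after the calls were known.

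The sequences just upstream of the 2 called genes are shown as a description, and binding of SRY to them was not tested. Promoter windows of RefSeq (GRCm38.p6) were matched for 4 of the 7 members, Scn1a, Scn2b, Scn4b and Scn8a, and each was searched over the 250 bases before the annotated start for AACAAT and AACAAA, the letters that SRY and SOX proteins are known to bind, on both strands. The Scn2b window is chr9:45117626-45117875 and the Scn4b window chr9:45138374-45138623, both on the plus strand, and capitals mark the matches.
Scn2b: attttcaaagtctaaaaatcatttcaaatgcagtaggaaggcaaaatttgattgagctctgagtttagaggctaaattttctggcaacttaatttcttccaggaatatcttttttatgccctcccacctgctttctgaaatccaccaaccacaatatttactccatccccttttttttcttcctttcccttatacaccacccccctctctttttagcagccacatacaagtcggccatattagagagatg
Scn4b: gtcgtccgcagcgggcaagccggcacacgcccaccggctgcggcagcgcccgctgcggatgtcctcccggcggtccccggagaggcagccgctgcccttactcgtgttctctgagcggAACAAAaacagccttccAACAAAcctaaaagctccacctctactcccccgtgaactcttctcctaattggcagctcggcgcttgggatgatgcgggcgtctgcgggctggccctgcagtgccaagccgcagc
The Scn4b window held 2 copies of AACAAA, beginning 132 and 115 bases before the start, and the Scn2b window held neither hexamer. The windows of Scn1a and Scn8a also held neither. Of 32851 promoter windows of this length, 9.42% held AACAAT and 18% held AACAAA on either strand, and 24.9% held either or both. The windows differed in base composition, with 66% G and C for Scn4b and 38.4% for Scn2b.

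Of the alpha subunit genes among the members, only Scn1a and Scn8a were measured, and Scn1a had the larger difference. Its probe (ILMN_2762701) gave signals of 552, 454 and 471 in hSRY-OFF and 629, 688 and 494 in hSRY-ON, so that hSRY-ON array 3 lay within the range of the controls. After normalization the groups did not overlap, with means of 8.37 ± 0.09 in the controls and 8.84 ± 0.33 with SRY activated (SD, n = 3 per group). The difference was 0.47 (SE 0.16, 95% interval 0.09 to 0.86) and was not called (limma adjusted p 0.164). Dropping the highest hSRY-ON array, array 2, gave 0.31 (limma adjusted p 0.278), and dropping array 3, the lowest of that group, gave 0.64 (limma adjusted p 0.0542). The probe was called without background correction (0.34, limma adjusted p 0.0380) and with a trend and robust prior (0.47, limma adjusted p 0.0270). Scn1a encodes the channel on which fast-spiking inhibitory neurons in particular depend.

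Scn8a, whose channel becomes the main one of mature nodes and initial segments, was measured by probe ILMN_2721059. Its signals were 444, 422 and 413 in hSRY-OFF and 422, 385 and 332 in hSRY-ON, and the groups overlapped. The normalized difference was -0.21 (SE 0.13, 95% interval -0.52 to 0.11, limma adjusted p 0.425). It was -0.06 without hSRY-ON array 3, the lowest of the 6 (limma adjusted p 0.731). The interval holds 0 and overlaps that of Scn2b (-0.83 to -0.36), and the difference between these genes was not tested.

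Scn3b had 4 probes. The brightest (ILMN_1215136) gave signals of 2664, 2224 and 2286 in hSRY-OFF and 2794, 2508 and 2355 in hSRY-ON, which overlapped before normalization and not after it. The normalized difference was 0.17 (SE 0.08, 95% interval -0.03 to 0.36, limma adjusted p 0.302). Probe ILMN_1227604 gave 837, 780 and 790 in hSRY-OFF and 972, 818 and 805 in hSRY-ON, with a normalized difference of 0.20 (SE 0.10, limma adjusted p 0.281). Probe ILMN_3163577 gave 638, 662 and 563 in hSRY-OFF and 636, 660 and 694 in hSRY-ON, also with a difference of 0.20 (SE 0.12, limma adjusted p 0.360). These 3 probes differed in the same direction without passing the test. The fourth, ILMN_2451346, stayed at signals between 183.9 and 207.7, was detected on 3 of the 6 arrays and gave -0.02 (limma adjusted p 0.979). Its sign changed in 3 of the 6 cases where 1 array was dropped. The upper limits of the intervals of the 3 brighter probes, 0.36 to 0.47, bound the difference of Scn3b that these arrays allow.

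**Figure D2:**
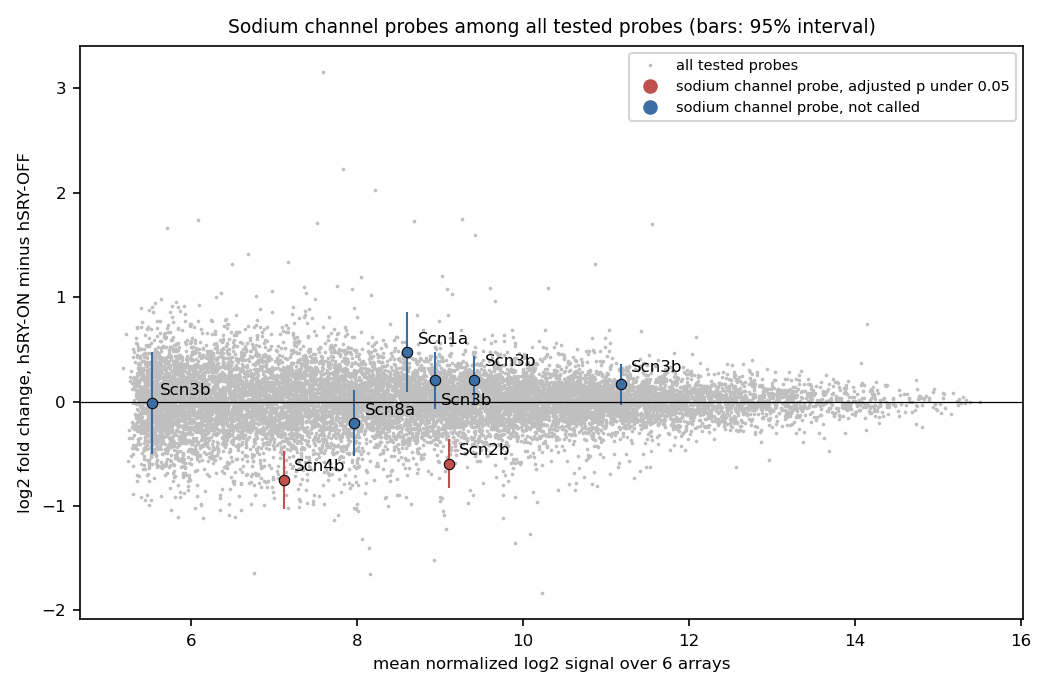
Log2 fold change (hSRY-ON minus hSRY-OFF) against the mean normalized log2 signal for the 14215 tested probes (grey), with the sodium channel probes marked and their 95% intervals drawn as bars. The called Scn2b and Scn4b (red) lie at -0.59 and -0.75, toward the lower edge of the cloud, and the probes in blue were not called.

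The members were also set against each other within each array, as differences between probes of the same array. Relative to the Scn2b probe of the same array, the Scn1a probe was higher by 1.07 on the log2 scale in hSRY-ON than in hSRY-OFF, and the SD of this within-array difference was 0.20 in hSRY-OFF and 0.24 in hSRY-ON (n = 3 each). Relative to the Scn4b probe, Scn1a was higher by 1.22, with an SD of 0.09 and 0.47, and the brightest Scn3b probe by 0.92, with an SD of 0.04 and 0.31. For each of these pairs every hSRY-ON array lay above every hSRY-OFF array. Between Scn2b and Scn4b the change was 0.15 and the groups overlapped. These pairs were chosen after the values were seen and were not tested.

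Of the other sodium channel subunit genes, Scn4a, Scn7a, Scn10a and the leak channel gene Nalcn were below background on all 6 arrays and have no fold change. The sensory neuron channel gene Scn11a was near background, with signals of 191.9 to 220.6 over the 6 arrays, and its difference was 0.13 (SE 0.16, 95% interval -0.25 to 0.52, limma adjusted p 0.683).

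Partners that hold sodium channels at the axon initial segment and node were measured by 30 tested probes of 17 genes, of 21 listed. Of these 30 probes, 0 were called in limma, against 2.17% of all tested probes. An unadjusted p under 0.05 was reached by 2 of them, against 20.9% of all. Without background correction 1 was called, higher, and 4 had an unadjusted p under 0.05. Their median difference was 0.10, with 21 probes above 0 and 9 below, and the range was -0.31 to 0.44. The lowest p belonged to the ankyrin B gene Ank2 (ILMN_3158444), which went from 7.85 to 8.23, a difference of 0.38 (SE 0.10, limma adjusted p 0.0889). Its brightest probe (ILMN_2718030) gave 0.01 (limma adjusted p 0.975). Gliomedin (Gldn), which clusters channels at peripheral nodes, gave 0.37 (limma adjusted p 0.169), a further Ank2 probe (ILMN_3079138) 0.44 (limma adjusted p 0.252), and Fgf13 (ILMN_1257196), which encodes a protein that binds the tail of the alpha subunit, 0.23 (limma adjusted p 0.274). Ank3, which encodes ankyrin G and is named here for that role, had 2 tested probes with differences of 0.14 and 0.13 (limma adjusted p 0.739 and 0.576).

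The cell types that use these channels were read through marker genes. General neuronal markers had a median difference of -0.07 over 13 tested probes of 9 genes, with summed signals of 89900 to 106900 in hSRY-OFF and 87400 to 97040 in hSRY-ON. Gap43, a growth cone protein of extending axons, was the 1 called probe and rose by 0.45 (SE 0.08, limma adjusted p 0.0479), a call that was lost under median scaling, with no filter on dim probes and in all 6 fits that dropped an array. Rbfox3 (NeuN), listed as D11Bwg0517e, differed by -0.0051 (limma adjusted p 0.981). Of the 13 neuronal probes 8 lay below 0, and 2 had an unadjusted p under 0.05 in limma, against 20.9% of all tested probes. Besides Gap43 this was a probe of the synaptic vesicle gene Syn1 (ILMN_2762083), at -0.23 (SE 0.08, limma adjusted p 0.172). With the trend and robust prior 1 neuronal probe was called higher and 1 lower. The probes of Snap25 and Nefl were below background on all arrays. Immature neuron markers had a median of 0.12 over 8 probes, with 7 above 0 and 0 called, and their summed signals overlapped (15290 to 19680 and 17420 to 18450). In limma 1 had an unadjusted p under 0.05, against 20.9% of all tested probes. This was Sox4, at 0.42 (limma adjusted p 0.0698). With a detection p under 0.01 required on all 6 arrays, 1 probe was called, higher. The groups did not overlap for 3 of the 8, all higher, against 13.5% of all in that direction.

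Markers of Purkinje cells and parvalbumin interneurons, both fast-firing kinds of neuron, were lower in part. Of 6 tested probes, 2 were called, both lower, against 1.32% of all tested probes. Pcp2 of Purkinje cells fell by 0.97 (SE 0.11, limma adjusted p 0.0243) and the calcium buffer Pvalb by 1.27 (SE 0.12, limma adjusted p 0.0240). Itpr1, the inositol trisphosphate receptor abundant in Purkinje cells, gave -0.28 (limma adjusted p 0.114). The probes of Gad1, which makes the transmitter GABA, gave 0.11 and 0.19 (limma adjusted p 0.609 and 0.554), and the probes of Calb1 and Pcp4 were below background on all arrays. The summed signal of this list was 13240 to 17510 in hSRY-OFF and 11820 to 13660 in hSRY-ON. The part of these cells in the lower Scn2b and Scn4b was not tested.

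Markers of myelinating oligodendrocytes, which make the sheath that borders the nodes, had a median difference of -0.47 over 13 probes of 7 genes, with 12 below 0. Of these, 2 probes of Mobp were called, with -1.05 and -1.36 (limma adjusted p 0.0225 and 0.0348), against 1.32% of all tested probes called lower. The summed signal of the list was 29860 to 37210 in hSRY-OFF and 22420 to 23510 in hSRY-ON. An unadjusted limma p under 0.05 was reached by 8 of the 13 probes, against 20.9% of all tested probes. The groups did not overlap for 8 of the 13, all of them lower, against 14.2% of all in that direction. Without background correction, with normexp at an offset of 50, with detection required on all arrays and with the trend and robust prior, 7 of the 13 were called, all lower, and under the same settings the calls over the whole array rose from 308 to between 705 and 1447. With no filter on dim probes 1 probe of the list was called, and with 1 probe per symbol 1 of 7. Oligodendrocyte precursor genes had a median of -0.27 over 5 probes, of which Gpr17, a receptor of cells about to myelinate, fell by 0.73 (SE 0.10, limma adjusted p 0.0263). The others were not called and did not share a direction, with -0.31 and -0.27 for the lineage factors Olig2 and Olig1, -0.07 for Cspg4 and 0.19 for Pdgfra, the growth factor receptor of precursors (limma adjusted p 0.151 to 0.683). Summed signals of that list were 12040 to 14630 in hSRY-OFF and 9831 to 10600 in hSRY-ON. Over the partner and marker lists, 6 of 87 probes were called, against 2.17% of all tested probes. Without hSRY-ON array 3, 5 were called. When any other array was left out, 0 were called (20 to 26 of 87 probes had an unadjusted limma p under 0.05). The part of these cells in the sodium channel values was not tested. Blood, vessel and microglia markers had a median of 0.09 over 10 probes, with 0 called and overlapping sums (39800 to 46510 and 35120 to 43020). In limma 3 of the 10 had an unadjusted p under 0.05, against 20.9% of all tested probes. These 3 lay on both sides of 0, with -0.42 for the endothelial junction gene Cldn5 (limma adjusted p 0.126) and, of microglial genes, 0.38 for C1qb and 0.38 for a Csf1r probe, ILMN_2710819 (limma adjusted p 0.0733 and 0.188). Without background correction, and with the trend and robust prior, 1 probe of this list was called higher and 1 lower.

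**Figure D3:**
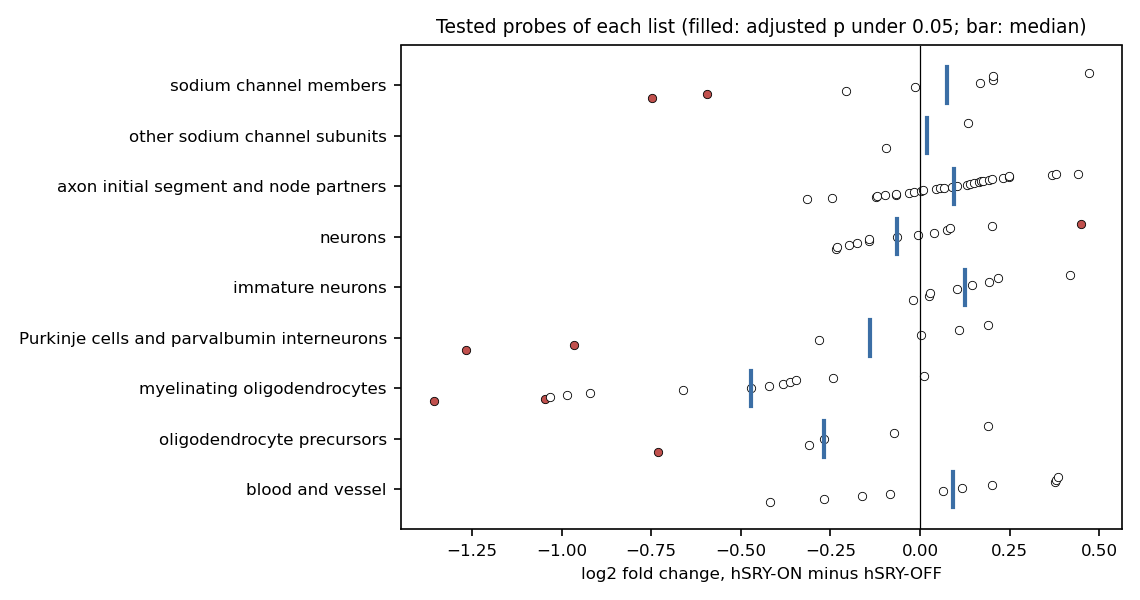
Log2 fold changes (hSRY-ON minus hSRY-OFF) of every tested probe of the sodium channel members, their partners and the marker lists, 1 circle per probe, filled where the limma adjusted p was under 0.05, with a blue bar at each list's median. The 2 filled circles of the members are Scn4b and Scn2b, the partners have none, and the myelin list has the lowest median, at -0.47.

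The probes whose values over the 6 arrays most resembled each member were found by the root mean square difference of log2 signals centred on their mean, as a description. For Scn2b they were BC048546 (0.0322), Hist1h4j (0.0518) and Trim36 (0.0666), and for Scn4b they were Clspn (0.0544), Anxa5 (0.0559) and Ass1 (0.0626). Their differences lay between -0.78 and -0.57, and all but Ass1 (limma adjusted p 0.0565) were called. The nearest to Scn1a were 9030221M09Rik (0.0534), Smox (0.0709) and Bbc3 (0.0751). For Scn8a they were LOC100046406, Tmem180 and Gabarapl2 (0.0370 to 0.0447), and for the brightest Scn3b probe Sumo2, Meis2 and B3gat1 (0.0203 to 0.0263).

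**Figure D4:**
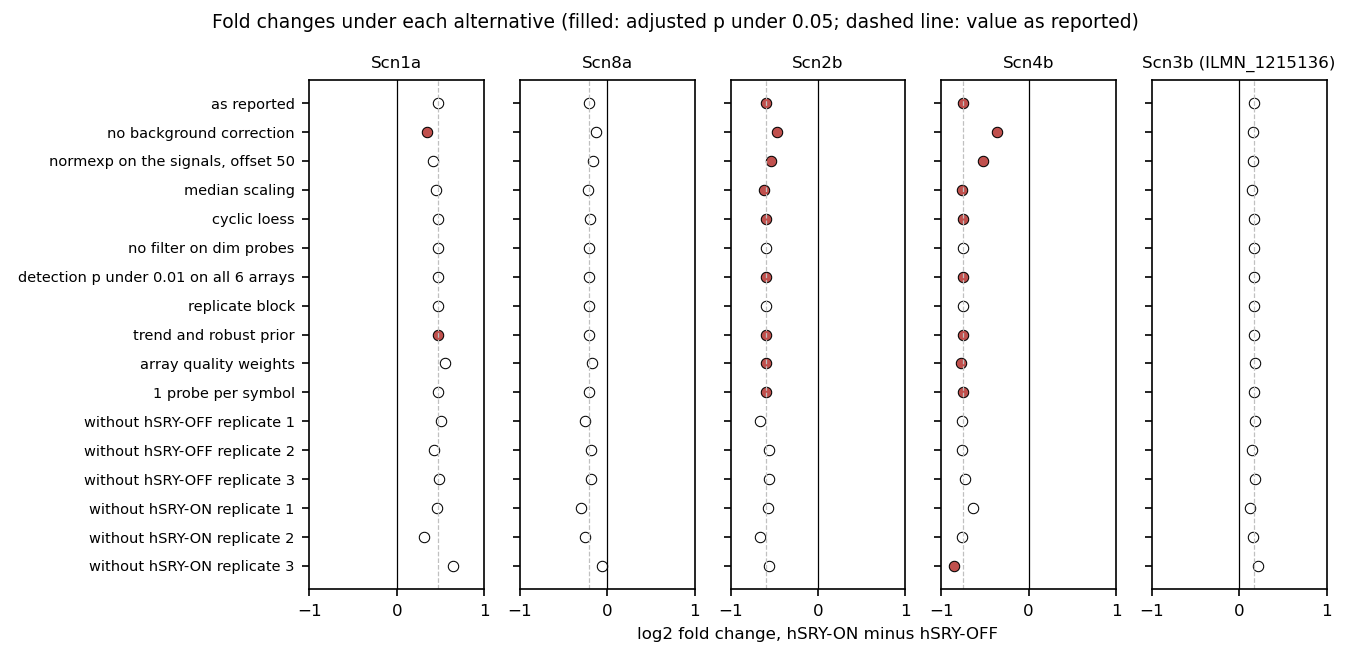
Log2 fold change of each member (for Scn3b, its brightest probe) as reported and under 16 alternatives, filled where the limma adjusted p was under 0.05, with the reported value as a dashed line. Every value of Scn2b and Scn4b lies below 0 and every value of Scn1a above it, while the fill changes between settings.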

How the data were processed

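Total RNA of whole brain was labelled with biotin and hybridized to Illumina MouseRef-8 v2.0 BeadChips, at a core facility. The table the authors deposited holds, for each probe and array, a mean bead signal intensity on a linear scale, not normalized, and a detection p-value against the negative controls. Image processing was not given in the sources used here. The TCC package named by the study was not used here, and the submitters' processing notes name limma. Here, in R 4.3.3 with limma 3.58.1, normexp correction used negative-control moments inferred from the detection p-values (offset 16), followed by log2 and quantile normalization. Probes detected (detection p under 0.05) on at least 3 of 6 arrays entered a limma fit with the group as its only term (lmFit, eBayes, two-sided, Benjamini-Hochberg over all tested probes). The steps were tested on simulated data. Arrays were grouped by the genotype in their labels, and 3 per group limit the precision. Named genes were all member probes, the called or lowest-p list probes and the 3 probes most like each member. Outside this rule, Itpr1, Gad1, Ank3, Syn1, Sox4 and the brightest Ank2 probe were named after values were seen. So were the neighbouring genes and the precursor, vessel and microglia genes that were not called. Some listed genes are not reported here. Members and lists were chosen with earlier results of these data known. Older symbols were matched through RefSeq names, and figures were drawn with matplotlib 3.10.9. Alternatives were other background corrections, normalizations, filters, priors, weights, a replicate block, 1 probe per symbol and leaving out each array.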

Additional observations from a re-analysis of the deposited data

How the results depend on the processing

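The fall of Scn2b and Scn4b kept its direction under all 16 alternatives, but not its call. With no filter on dim probes, where more probes are tested, 0 sodium channel probes were called (3 at an unadjusted p under 0.05 in limma, with adjusted p 0.0606 for Scn2b at -0.59 and 0.0538 for Scn4b at -0.75), and 0 to 1 were called when an array was left out (2 to 4 at an unadjusted p under 0.05). Scn2b was called under 8 alternatives and Scn4b under 9. Scn1a was called without background correction (0.34, limma adjusted p 0.0380) and with a trend and robust prior (0.47, 0.0270). Leaving out each array gave -0.67 to -0.55 for Scn2b, -0.85 to -0.63 for Scn4b and -0.21 to 0.15 for the dim Scn3b probe, whose direction turned in 3 of these fits and is not settled. The other 5 probes kept theirs.

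Over all probes, 1317 were called without background correction, 860 with normexp on the signals, 123 with no filter, 705 with detection on all arrays, 1447 with the trend and robust prior, 480 with array weights and 0 to 393 without 1 array (393 without hSRY-ON array 3, 0 or 1 without each other array, where 2239 to 2709 had an unadjusted p under 0.05 in limma). Over the partner and marker lists the 6 calls became 16, 12, 4, 13, 16 and 6 in the same order and 0 to 5 without 1 array. The causes were not tested.

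With the replicate number as a block, 0 probes were called over the whole array, 0 among the sodium channel probes and 0 in the lists, Gap43 included (2906, 3 and 25 at an unadjusted p under 0.05 in limma), and Scn2b (-0.59, limma adjusted p 0.103) and Scn4b (-0.75, 0.102) lost their calls. Same-numbered arrays deviated together only weakly (correlations 0.0404, 0.0294 and 0.0251), but each correlated best with its own number. The correlations between arrays of unlike number were all negative (-0.023 to -0.0054). Whether arrays of a number share more than the number is not settled, and the fit as reported has no block.

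The comparison of Scn3a with the later members was not run under any setting.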
